A study of Mus musculus with 10 samples.

Results

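Myelin genes and the related membrane proteolipid genes were followed in the brain of newborn mice with 1 or 2 X chromosomes. The genes sought were Gpm6a, Gpm6b, Mbp, Mag, Mog, Mobp, Cnp and Mal, and the members are all probe sets whose only gene symbol is one of these. There were 12 such probe sets, for 7 of the 8 genes, among 12488 probe sets in all. No probe set carried the symbol Gpm6a, which is not analysed here. RNA of whole brain, taken at postnatal day 0, was hybridised to 10 Affymetrix arrays that report 1 intensity per probe set, on a linear scale.

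The arrays fall into 4 groups. XmO animals have 39 chromosomes and a single X, the maternal one by their name, and come from the cross C57BL/6J x C3H/Paf (3 arrays, numbered 1, 2 and 7). XX_Paf are 40,XX females of the same cross (3 arrays, numbered 1, 2 and 3). XpO animals have 39 chromosomes and a single, paternal X, from the cross In(X)/C3H x C57BL/6J (2 arrays, 15 and 18). XX_InX are 40,XX females of that cross (2 arrays, 1 and 19). The labels do not say what Paf and In(X) carry, whether an array holds 1 animal or a pool, or whether animals share litters, so p-values measure only the spread between these samples. XO and XX of a cross share its parents, but XO animals lack the X of the other parent. Within a cross the number of X chromosomes and the parent they come from thus cannot be told apart. A contrast of XmO with XpO, or of XX_Paf with XX_InX, holds the difference between crosses as well. Whole brain mixes cell types, so fewer cells of a type and less RNA per cell cannot be told apart.

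Myelin is the lipid-rich membrane that oligodendrocytes wrap around axons in the brain and spinal cord. Mbp compacts its cytoplasmic faces, Mag and Mog are immunoglobulin-type proteins of its inner and outer surfaces, Mobp is a small basic protein of compact myelin, Cnp is an enzyme of the non-compact cytoplasmic channels, and Mal is a raft proteolipid that sorts membrane. In the mouse brain most myelin forms in the weeks after birth, so the newborn brain holds many precursors and few myelinating cells. Gpm6a and Gpm6b are 4-pass membrane proteins of the proteolipid family, and Gpm6b is made in neurons as well as in oligodendrocytes. Gpm6b lies on the X chromosome and the other genes measured lie on autosomes.

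At birth Mog and Cnp gave no signal above background on any array and Mobp did so on some arrays only, while Gpm6b, Mbp and the brighter of 2 Mag probe sets were above it on every array. Background was read on each array from the brightest of 9 probe sets for Y-linked genes, as XO and XX animals carry no Y chromosome. It ranged from 33.6 on XpO 15 to 136.6 on XmO 7. The Mog probe set lay between 4.50 and 18.1 with a median of 8.15, and it was above background on 0 of 10 arrays. Cnp lay between 12.3 and 81.0 with a median of 49.1, also above background on 0 of 10 arrays. No fold change is given for these genes, since neither group of any comparison rose above background.

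Mobp had 4 probe sets. Those named 99046_at, 99048_g_at and 100536_at stayed below background on all 10 arrays, with highest intensities between 10.8 and 30.5. The fourth Mobp probe set, 99047_at, ranged from 18.4 to 120.1 and was above background on 4 arrays: XmO 2, XX_Paf 1 and both XpO arrays. These are not its 4 brightest arrays, since the background differs between arrays. Its highest value, 120.1 on XmO 7, lay under a background of 136.6, while 78.9 on XpO 15 lay above one of 33.6. No Mobp probe set passed the filter on low values, so no fold change is given. Mag also had probe sets that disagreed: the dimmer, 102405_at, was at 17.6 to 61.2 with a median of 27.2 and above background on 1 array, XX_Paf 1 (61.2 against 60.3). In all, 7 of the 12 probe sets, holding Mog, Mobp, Cnp and one of Mag, fell under the filter on low values and were not tested. The brightest of them, Mobp 99047_at, had a mean log2 intensity of 5.73 against a threshold of 6.09, and the dimmest probe set that passed, that of Mal, had 6.99.

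**Figure D1:**
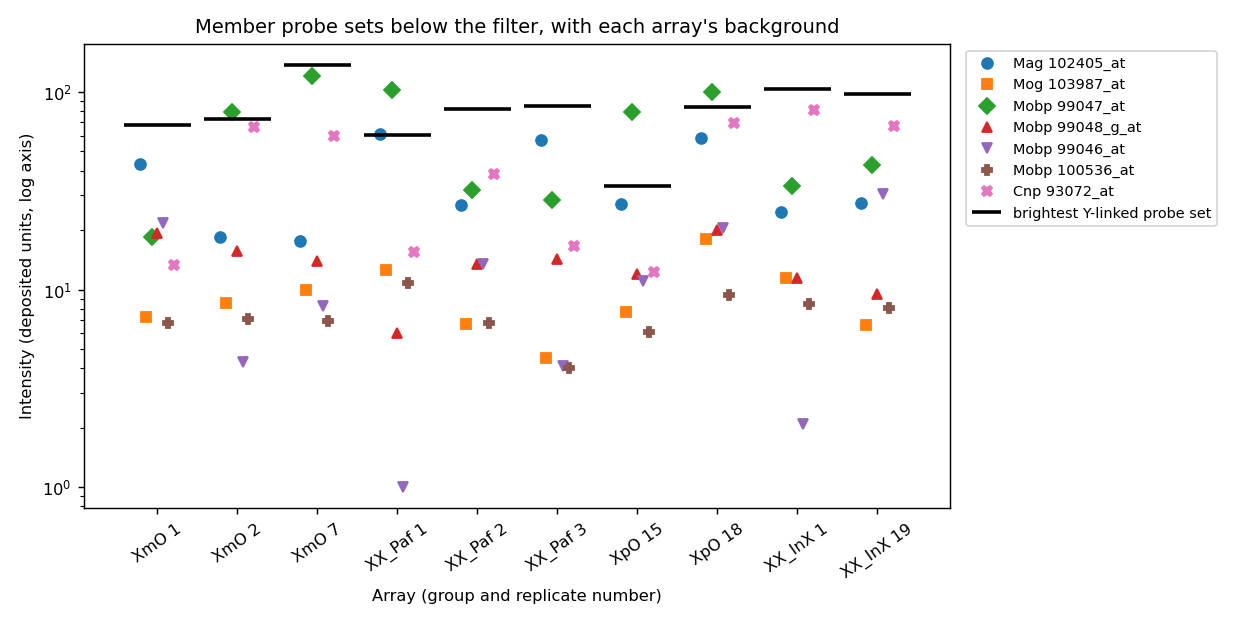
Intensity (deposited units, log axis) of the 7 untested probe sets of Mag, Mog, Mobp and Cnp on each of the 10 arrays, with a black bar for that array's background (its brightest Y-linked probe set). Mobp 99047_at is above the bar on 4 arrays and Mag 102405_at on 1; the Mog and Cnp points all lie below it.

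The 5 probe sets tested were those of Gpm6b, Mal and Mag, 1 each, and 2 of Mbp. Over all 8695 probe sets tested, limma called 1 in XO against XX (0.0115%), 2 in XmO against XX_Paf (0.023%), 1 in XpO against XX_InX (0.0115%), 1 in XmO against XpO (0.0115%), 2 in the difference between the crosses' monosomy effects (0.023%) and 7 in XX_Paf against XX_InX (0.0805%). A call is an adjusted p under 0.05, by Benjamini and Hochberg over all probe sets. Of the members, 0 of 5 were called in each of these 6 comparisons. At an unadjusted p under 0.05 the members gave 0 in XO against XX (2.60% of all probe sets), 1 in XmO against XX_Paf (5.53%), 0 in XpO against XX_InX (3.38%), 0 in XmO against XpO (4.83%), 1 in the difference between crosses (5.91%) and 1 in XX_Paf against XX_InX (13.8%). Each time it was Gpm6b. The arrays of the groups did not overlap for 2 of the 5 (both lower) in XmO against XX_Paf, where 6.97% of all tested probe sets were lower and 6.96% higher without overlap. In XpO against XX_InX 1 was lower and 1 higher (12.1% and 11.3% of all), in XmO against XpO 0 were either (8.83% and 8.59%), and in XX_Paf against XX_InX 0 were lower and 3 higher (19.5% and 17.6%). In both crosses at once 0 were lower or higher in XO than in XX (0.495% and 0.357%).

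Gpm6b was highest in the XX females of the Paf cross. Its intensity was 1973, 1674 and 1599 on XX_Paf 1, 2 and 3 and 1080, 1237 and 1303 on XmO 1, 2 and 7. It was 1752 on XpO 15 and 893 on XpO 18, and 1007 and 1028 on XX_InX 1 and 19. The XX_Paf arrays thus lay above every XmO and XX_InX array, while the XpO arrays lay on either side of both XX_InX arrays. The group means fell in the order XX_Paf (1748 ± 198, SD, n = 3), XpO (1323 ± 607, n = 2), XmO (1207 ± 115, n = 3) and XX_InX (1018 ± 14.7, n = 2). The arrays of XpO overlap with those of each of the other 3 groups or span them. The probe set was bright everywhere, at least 893 where the background was at most 136.6.

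Between the XX females of the 2 crosses Gpm6b had a log2 fold change of 0.78 in XX_Paf over XX_InX (SE 0.22; 95% interval 0.29 to 1.26), a 1.71-fold difference. It did not pass over all probe sets (limma, adjusted p = 0.190, unadjusted p = 0.00421). It had an adjusted p of 0.0480 when only the 5 arrays of these groups were fitted, a fit that called 35 probe sets in all. Other settings gave no call. The limma adjusted p was 0.140 with the filter at the 50th percentile and 0.200 with quantile normalization. It was 0.324 without an intensity trend and 0.328 without a filter. The arrays of the groups did not overlap. Of 235 tested X-linked probe sets, 5 had a higher estimate. Without XX_Paf 1 the estimate was 0.68 and without XX_Paf 3 it was 0.84.

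Within the Paf cross Gpm6b was lower in XmO than in XX_Paf, with a log2 fold change of -0.53 (SE 0.20; 95% interval -0.96 to -0.10), or 0.691-fold. This estimate did not pass (limma, adjusted p = 0.877, unadjusted p = 0.0192). All 3 XmO arrays lay below all 3 XX_Paf arrays. 7 of the 235 tested X-linked probe sets had a lower estimate. Leaving out any 1 array kept the estimate between -0.60 and -0.44.

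Within the In(X) cross the sign depended on which XpO array was used. The log2 fold change of Gpm6b in XpO against XX_InX was 0.30 (SE 0.24; 95% interval -0.23 to 0.83; limma, adjusted p = 0.9998, unadjusted p = 0.243). It was 0.78 without XpO 18 and -0.19 without XpO 15. The brighter XpO array was 1.96 times the dimmer one, and 8.82% of all tested probe sets had a larger ratio between these arrays. The difference between the crosses in the effect of monosomy was -0.83 (SE 0.31; limma, adjusted p = 0.832, unadjusted p = 0.0206), -0.35 without XpO 15 and -1.32 without XpO 18.

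XO against XX, with both crosses weighted equally, gave -0.12 for Gpm6b (SE 0.16; 95% interval -0.46 to 0.22; limma, adjusted p = 0.9995). That interval runs from 0.728-fold to 1.17-fold, so a fall by a full log2 unit over both crosses lies outside it. Without XpO 18 the estimate was 0.13 and without XpO 15 it was -0.36. XmO against XpO gave -0.06 (SE 0.22; limma, adjusted p = 0.99997), with 0.43 without XpO 15 and -0.54 without XpO 18.

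**Figure D2:**
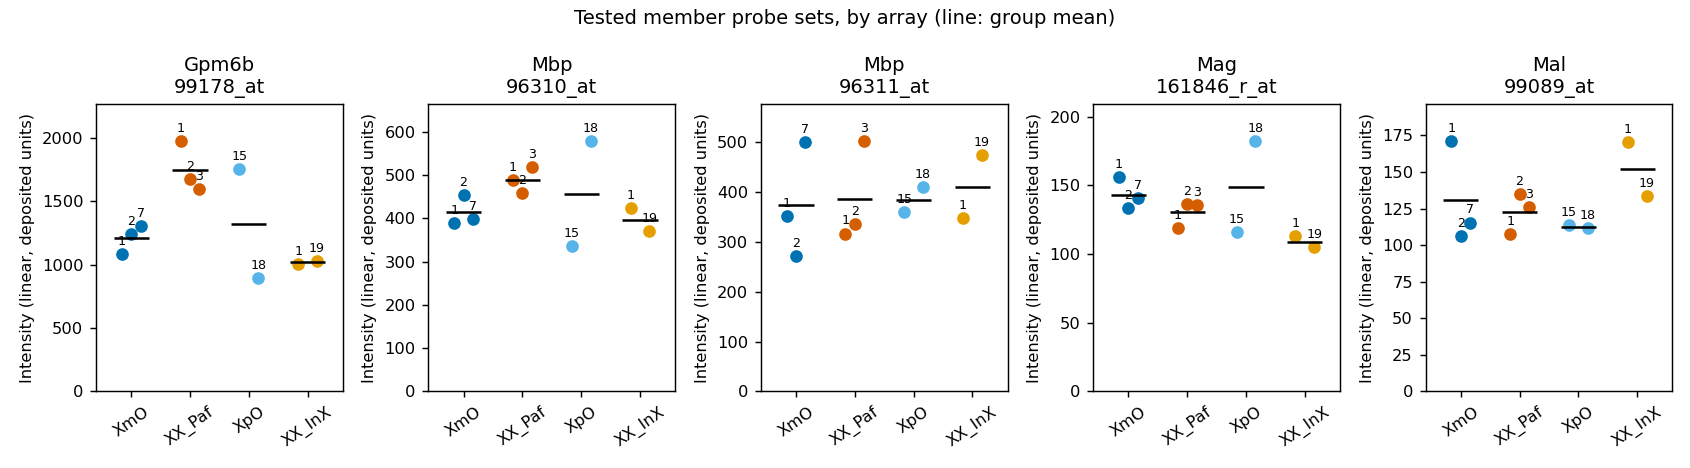
Intensity (linear axis from 0) of the 5 tested probe sets on each array, by group, with replicate numbers beside the points and a line at each group mean. The XX_Paf points of Gpm6b lie at 1599 to 1973, above the XmO points at 1080 to 1303, and XpO 15 and 18 stand far apart.

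Gpm6b varied in part with the main axis of difference between the arrays. The first principal component of the tested probe sets took 25.6% of the variance. Its 4 highest scores, 23.6, 15, 13.2 and 9.77, were those of XX_Paf 1, XpO 15, XX_Paf 2 and XX_Paf 3, the same 4 arrays that had the 4 highest Gpm6b intensities. Its lowest score, -27.4, was that of XpO 18, which had the lowest Gpm6b intensity. Within XmO the order was reversed: the scores were 8.73, -3.03 and -8.01 on XmO 1, 2 and 7, where Gpm6b was lowest on XmO 1 and highest on XmO 7. Over the 10 arrays Pearson's r between Gpm6b and the score was 0.88, and 2.89% of tested probe sets had an r at least as large in size. The component was computed from probe sets that include Gpm6b, and the part of this axis in the Gpm6b differences was not tested. Erythroid markers also moved with the cross: the summed intensity of the 3 measured of 5 was 11626 to 16870 in XX_Paf and 11170 to 17148 in XmO, but 5818 to 7335 in XpO and 3985 to 5987 in XX_InX. All 3 were above background on every array and none was at 0. The summed intensity of the 4 neuron markers overlapped between XX_Paf (49912 to 51013) and XX_InX (49859 to 55005). The summed oligodendrocyte markers, each gene by its brightest probe set, did not overlap in the comparisons where Gpm6b did not. Of 8 markers 7 were measured, 6 of them members, and 3 were above background on every array. Their sums were 1098 to 1206 in XX_Paf, 962 to 1084 in XmO and 979 to 1030 in XX_InX, with 845 to 1313 in XpO. Of the 7, only Mbp 96310_at (mean 414 in XmO against 488 in XX_Paf) and Cldn11 (212 against 307) had lower means in XmO. The other Mbp probe set, 96311_at, overlapped in both comparisons, and the other tested Cldn11 probe set had a higher estimate in XmO than in XX_Paf. Among all tested probe sets, 6.97% were lower in XmO than in XX_Paf without overlap, and 17.6% higher in XX_Paf than in XX_InX. Of 5 precursor markers 2 were measured, Pdgfra and Sox10, both above background on every array. They summed to 2171 to 2343 in XmO and 1637 to 1964 in XX_Paf, without overlap. In XpO they were at 1773 to 2227 and in XX_InX at 1725 to 2590. The higher sum in XmO than in XX_Paf came mainly from Pdgfra (mean 1748 against 1340), while Sox10 had means of 533.5 and 508.7. In the longer list of precursor and lineage genes below, 3 estimates were higher in XmO than in XX_Paf and 3 lower. Skeletal muscle markers (5 of 5 measured, 1 above background on every array) summed to 502 to 2826 in XX_Paf, 395 to 702 in XmO, 410 to 572 in XpO and 449 to 626 in XX_InX. None of these markers was at 0. The part of these marker groups in the Gpm6b differences was not tested.

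**Figure D3:**
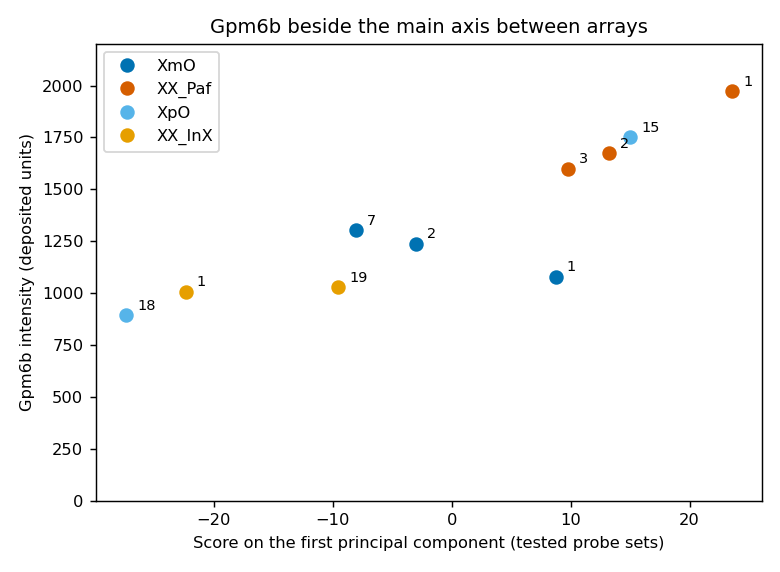
Gpm6b intensity (linear axis from 0) against each array's score on the first principal component of the 8695 tested probe sets, coloured by group, with replicate numbers. XpO 15 lies among the 3 XX_Paf arrays at the upper right and XpO 18 at the lower left.

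The probe sets whose pattern over the 10 arrays was most like that of Gpm6b were those of Hnrnph2, an X-linked gene for a splicing protein (Pearson's r = 0.97, Spearman's rho = 0.96), and of Farsb, a subunit of phenylalanyl-tRNA synthetase (r = 0.96, rho = 0.96). They were picked as the highest of 7815 candidates, of which 24 had r above 0.9, and the arrays share the axis described above. For the brighter Mbp probe set the closest were Zfp30 (r = 0.90, rho = 0.89) and the splicing factor gene Sf3b3 (r = 0.88, rho = 0.82). For Mal they were Timm13, a chaperone of mitochondrial import (r = 0.89, rho = 0.89), and Sh3rf1 (r = 0.89, rho = 0.92), and for Mag Mogat2 (r = 0.91, rho = 0.94) and E4f1 (r = 0.90, rho = 0.90). None of these is a myelin gene in the lists used here.

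The tested X-linked genes nearest to Gpm6b in gene order, up to 5 on each side, were set beside it; this choice was made after values were seen. Of these 9 genes, 6 had a higher estimate in XX_Paf than in XX_InX and 5 a lower one in XmO than in XX_Paf. The median estimate over all tested probe sets was -0.02 in the first comparison and 0.00 in the second. The 9 include Erdr1, for which no count of genes between it and Gpm6b was available. It varied widely in XX_InX (12214 ± 9899, n = 2). Rab9, a small GTPase gene with 2 protein-coding genes between it and Gpm6b, had an intensity of 1287 ± 65.5 for XX_Paf (n = 3) against 1265 ± 62.4 for XX_InX (n = 2), a log2 fold change of 0.03 (limma, adjusted p = 0.946). Hccs, 13 protein-coding genes away, was at 1200.2 ± 184 in XX_Paf, 374 ± 20.5 in XmO, 428 ± 18.6 in XpO and 353 ± 53.5 in XX_InX. Its log2 fold change was called in XX_Paf against XX_InX (1.76, limma adjusted p = 7.61e-04) and in XmO against XX_Paf (-1.67, limma adjusted p = 3.87e-04). Ctps2, a CTP synthase gene on the other side, was nearest to Gpm6b in XX_Paf against XX_InX, with 0.72 (SE 0.17, limma adjusted p = 0.168), but had 0.02 in XmO against XX_Paf. The others included Tmsb4x (-0.08 in XX_Paf against XX_InX) and Piga (0.41), with adjusted p from limma of 0.735 and 0.574. In XmO against XX_Paf, Piga had -0.48 (SE 0.28, limma adjusted p = 0.887), near the value of Gpm6b, and Tmsb4x had -0.06. Piga was above background on 7 arrays.

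Mbp was above background on all 10 arrays by both of its probe sets, but no correlation between the 2 was seen over these arrays. The brighter, 96310_at, was at 388, 453 and 399 on XmO 1, 2 and 7 and at 488, 458 and 518 on XX_Paf 1, 2 and 3. It was at 335 and 578 on XpO 15 and 18 and at 423 and 370 on XX_InX 1 and 19. Here too all XmO arrays lay below all XX_Paf arrays, and the XpO arrays lay on either side of both XX_InX arrays. The log2 fold change in XmO against XX_Paf was -0.24 (SE 0.19; 95% interval -0.65 to 0.17; limma, adjusted p = 0.888). In XX_Paf against XX_InX, whose arrays did not overlap either, it was 0.30 (SE 0.21; 95% interval -0.16 to 0.76; limma, adjusted p = 0.537). The XpO arrays stood in the opposite order to Gpm6b, with XpO 18 the brighter.

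The second Mbp probe set, 96311_at, was at 352, 272 and 499 in XmO and 317, 336 and 502 in XX_Paf. It was at 360 and 409 in XpO and 347 and 474 in XX_InX. The groups overlapped in every comparison, and the log2 fold change in XmO against XX_Paf was -0.05 (SE 0.24; 95% interval -0.58 to 0.47; limma, adjusted p = 0.978). Over the 10 arrays the 2 Mbp probe sets had Pearson's r of -0.02 (permutation p = 0.963) and Spearman's rho of -0.08 (permutation p = 0.840). This was the only such pair tested, and r was -0.21 without the 2 arrays farthest from the median. With 10 arrays, permuted without regard to group, these values cannot show that the 2 probe sets vary independently. Across the 6 comparisons the intervals of both Mbp probe sets included 0 and reached at most -1.05 and 0.85 in the difference between crosses, and -0.72 and 0.76 in the others.

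Mag and Mal lay closer to background. The Mag values rest on 1 of its 2 probe sets, since the dimmer one was not tested. The brighter, 161846_r_at, was at 156, 134 and 141 on XmO 1, 2 and 7 against a background of 67.7, 73.2 and 136.6. It was at 119, 136 and 136 in XX_Paf, 116 and 182 in XpO, and 113 and 105 in XX_InX, always above background. Both XpO arrays lay above both XX_InX arrays, and the log2 fold change was 0.42 (SE 0.31; 95% interval -0.26 to 1.09; limma, adjusted p = 0.9998). It was 0.09 without XpO 18 and 0.74 without XpO 15. XX_Paf also lay above XX_InX without overlap, with an estimate of 0.25 (SE 0.28; limma, adjusted p = 0.704).

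Mal was at 171, 106 and 116 on XmO 1, 2 and 7, 108, 135 and 126 on XX_Paf 1, 2 and 3, 114 and 112 on XpO 15 and 18, and 170 and 133 on XX_InX 1 and 19. It was above background on 9 arrays and below it on XmO 7. XmO 1 and XX_InX 1 stood highest. Both XpO arrays lay below both XX_InX arrays, with a log2 fold change of -0.42 (SE 0.33; 95% interval -1.14 to 0.30; limma, adjusted p = 0.9998). It was -0.25 without XX_InX 1 and -0.60 without XX_InX 19. In XmO against XX_Paf the estimate was 0.06 (SE 0.27) and became -0.14 without XmO 1, -0.03 without XX_Paf 1 and 0.20 without XmO 2.

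**Figure D4:**
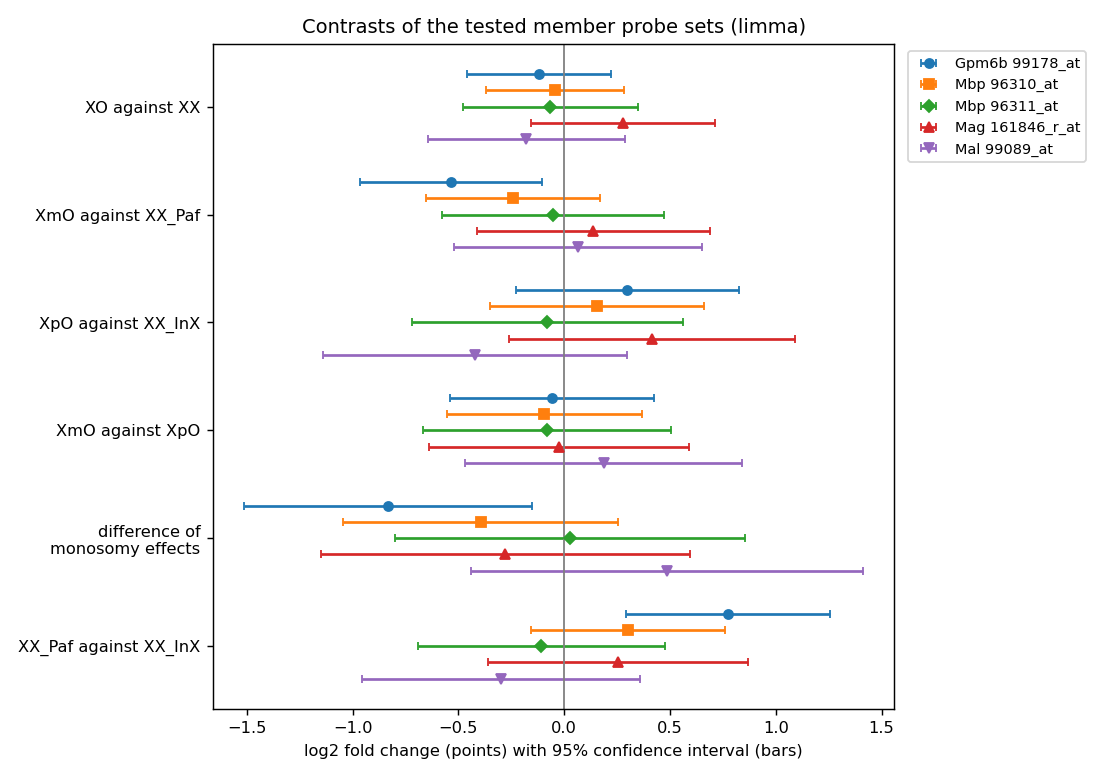
log2 fold change (points) with its 95% confidence interval (bars) for the 5 tested probe sets in each of the 6 comparisons, from limma. The Gpm6b interval excludes 0 in XmO against XX_Paf, in XX_Paf against XX_InX and in the difference between crosses, without adjustment for the 8695 probe sets; every other interval includes 0.

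Other genes were described by 6 lists that leave out the members: oligodendrocyte precursors and lineage factors, other myelin and oligodendrocyte genes, Schwann cells, neurons, astrocytes and radial glia, and cholesterol synthesis. Of the 7 measured genes of precursors and lineage factors, 6 were above background on all 10 arrays. Ptprz1, a receptor-type phosphatase of precursors and radial glia, lay at 2197 to 3517. Pdgfra, the growth factor receptor that marks precursors, lay at 1161 to 2078, with means of 1748 ± 183 for XmO and 1340 ± 104 for XX_Paf (3 arrays each), an estimate of 0.38 in log2 (SE 0.19, limma adjusted p = 0.887). In XmO against XX_Paf 0 of 6 tested genes of this list were called, with 3 higher and 3 lower estimates and a median log2 fold change of -0.01, against 0.00 over all probe sets.

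Among other myelin and oligodendrocyte genes 14 of 30 listed were measured and 11 were above background on all arrays; Omg and Opalin were among those not analysed here. 0 of the 13 tested were called in XmO against XX_Paf, with 7 higher and 6 lower estimates and a median of 0.01. The brightest were the Src-family kinase gene Fyn (2697 to 3690; log2 fold change -0.14, SE 0.10) and the pterin reductase gene Qdpr (2109 to 2443; 0.05, SE 0.10). Cldn11, the claudin of oligodendrocyte tight junctions, was named after its values were seen. Its means were 212 ± 25.6 for XmO, 307 ± 63.1 for XX_Paf (n = 3 each), 217 ± 51.2 in XpO and 226 ± 39.7 in XX_InX (n = 2 each), with a log2 fold change of -0.52 in XmO against XX_Paf (SE 0.22; limma, adjusted p = 0.877). Its other tested probe set had an estimate of 0.56 in that comparison.

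The remaining lists gave no call either. Of peripheral myelin and Schwann cell genes, 7 of 12 were measured, with L1cam (-0.32 in XX_Paf against XX_InX, SE 0.24) and Sox10 (-0.09, SE 0.19) the brightest. In all, 6 of the 7 had lower estimates there, with a median of -0.32, and 6 of 7 higher ones in XmO against XX_Paf, with a median of 0.25. L1cam also stands in the neuron list and Sox10 among the lineage factors. All 22 neuron and growth cone genes were tested and above background on all arrays, with Basp1 at -0.28 (SE 0.13) and the neuronal tubulin Tubb3 at -0.08 (SE 0.10) in XX_Paf against XX_InX. Of astrocyte and radial glia genes 17 of 19 were tested, with Fabp7 (0.05, SE 0.10) and Apoe (0.05, SE 0.14) the brightest. Of cholesterol synthesis genes, which supply the main lipid of myelin, 15 of 20 were tested, and 10 had lower estimates in XX_Paf than in XX_InX, with a median of -0.16 against -0.02 over all probe sets. Fdps, farnesyl diphosphate synthase, averaged 4984 ± 756 over the XX_Paf arrays (n = 3) and 7445 ± 623 over those of XX_InX (n = 2), an estimate of -0.59 in log2 (SE 0.13, limma adjusted p = 0.147), and Hmgcs1 had -0.10 (SE 0.14). Over the 76 genes tested in the 6 lists, limma called 0 in each comparison. In XX_Paf against XX_InX 10 of the 76 (13.2%) had an unadjusted p under 0.05, against 13.8% of all probe sets, and in XmO against XX_Paf 3 of the 76 (3.95%), against 5.53%.

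**Figure D5:**
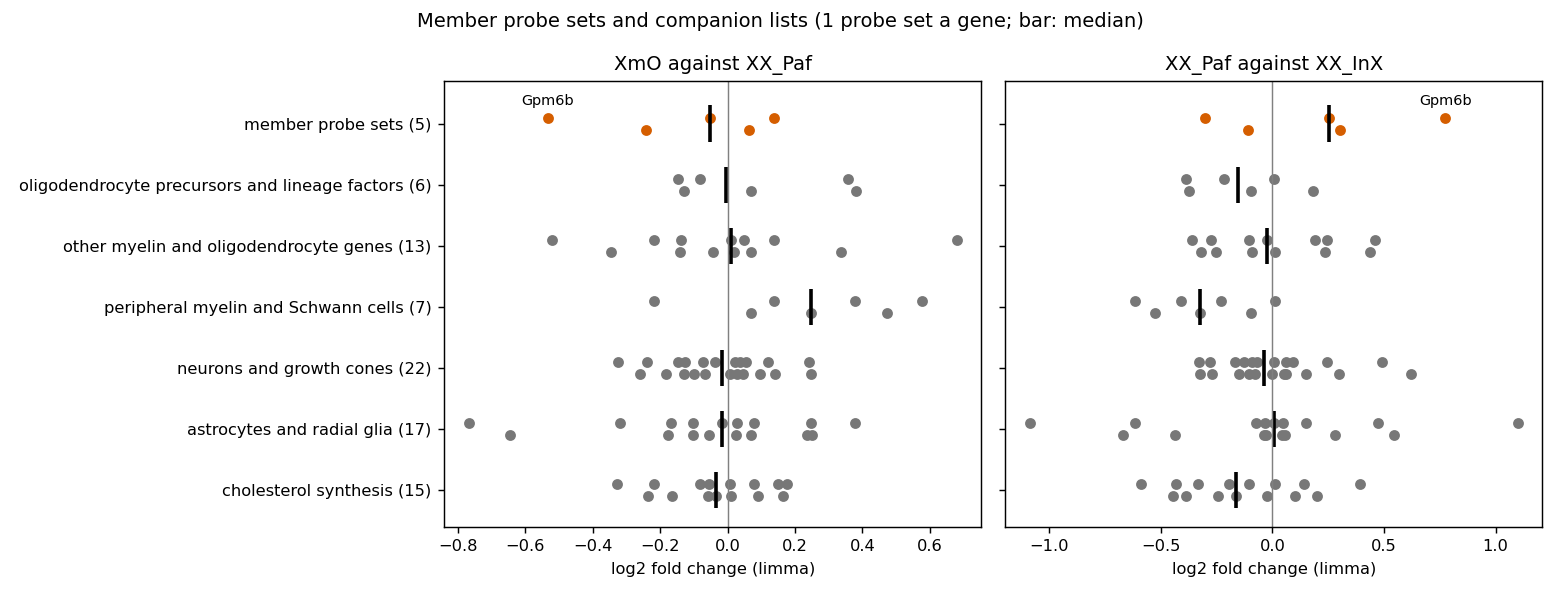
log2 fold changes from limma of the 5 tested member probe sets (top row) and of the genes of the 6 other lists (1 probe set a gene), in XmO against XX_Paf (left) and XX_Paf against XX_InX (right), with a bar at each median and the number of points in parentheses. Gpm6b is the lowest member at the left (-0.53) and the highest at the right (0.78).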

How the data were processed

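Each probe set has 1 linear intensity per array as the authors deposited it; how they summarised the probes is not given in the sources used here. With 2% of values trimmed from either end, every array's deposited intensities average 500.3, so the scaling between arrays was done before deposit and none was added. Control probe sets (66 of 12488) were dropped. Of those kept, 10833 had a single gene symbol in the platform's probe table, 396 had more than 1 and 1193 had no symbol. Chromosomes and gene order were read from RefSeq's gene table (GRCm38.p6), without its coordinates. Before taking log2, a floor was set at 15, the 10th percentile over all arrays, and the 8695 probe sets with a mean log2 value at or above the 30th percentile were tested with limma 3.58.1 in R 4.3.3 (1 mean per group, all 10 arrays, 6 residual degrees of freedom, eBayes with intensity trend, two-sided, Benjamini-Hochberg adjustment per comparison). The steps from the fit onward were tested on simulated data. Precision is limited by the number of arrays.

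Members and lists were chosen with earlier results of these data known. All member probe sets are named; of each other list, up to 4 called genes or else the 2 brightest tested genes, each by its brightest probe set, and for likeness the 2 probe sets of highest Pearson's r with each member gene's brightest probe set. Alternatives were other floors and filters, quantile normalization, other variance models, fits on the compared groups alone, each array left out, and a block by replicate number.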

Additional observations from a re-analysis of the deposited data

How the results depend on the processing

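The count of member probe sets called stayed at 0 under every alternative run except 1: with only the arrays of the groups compared, it was 1 in XX_Paf against XX_InX (Gpm6b, of 35 called in all; the cause was not tested). Without a filter all probe sets called were 5 in XO against XX, 4 in XmO against XX_Paf, 7 in XpO against XX_InX, 3 in XmO against XpO, 5 in the difference between crosses and 17 in XX_Paf against XX_InX, with 12422 tested. The difference between crosses had 1 with the filter at the 50th percentile and 0 without an intensity trend, where XX_Paf against XX_InX had 2. Leaving out 1 array gave counts of 1 to 3, 2 to 4, 1 to 4, 1 to 7, 0 to 4 and 2 to 17 in the same order. The highest came without XpO 15 or XX_InX 19, XmO 2, XX_InX 19, XpO 15, XpO 18 and XX_InX 19, the 0 without XmO 2, XmO 7 or XX_InX 1, and the lowest of XX_Paf against XX_InX without 1 of the XX_Paf arrays; a lone array left in a group is assumed to vary like the others.

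Of 30 estimates for the members, 16 changed sign without 1 array and 0 under the other settings; none of the 16 had a 95% interval that excluded 0. For the printed ones these ranges were -0.36 to 0.13, -0.19 to 0.78 and -0.54 to 0.43 for Gpm6b in XO against XX, XpO against XX_InX and XmO against XpO, -0.28 to 0.15 for Mbp 96311_at and -0.14 to 0.20 for Mal in XmO against XX_Paf. With a replicate block for XmO 1 and 2 against XX_Paf 1 and 2, Gpm6b had -0.65 and 1 probe set was called in all. The same-numbered arrays' deviations from their group means correlated at -0.01 and -0.04, and those of differently numbered arrays at -0.08 to 0.09. With so few arrays these values cannot tell whether the numbers pair animals, for example by litter. Mag and Mal fell under the stricter filter.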

Other observations

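Pmp22, a gene of the peripheral myelin sheath that is also active in other cells, was lower in XO than in XX within both crosses without overlap of arrays. Its mean intensity was 208 ± 13.6 for XmO against 241 ± 13.1 for XX_Paf (n = 3 each), and 182 ± 20.3 for XpO against 239 ± 17.8 for XX_InX (n = 2 each). The log2 fold change in XO against XX was -0.31 (SE 0.14; limma, adjusted p = 0.9995), so it did not pass, and 0.495% of all tested probe sets were likewise lower in both crosses. It was picked after its values were seen.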
